A study of Mus musculus with 9 samples.

Results

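Tyr, Tyrp1, Dct, Pmel, Mlana, Slc45a2, Slc24a5, Oca2, Gpr143 and Trpm1 encode the pigment enzymes and melanosome proteins described here. They were taken from a list of pigmentation genes, matched by Ensembl identifier to gene symbols of the mouse build GRCm38, and are 10 of the 55487 genes in the count table. All 10 passed the filter on low counts, among 15237 genes tested. RNA was sequenced from B16F10, a pigmented mouse melanoma cell line, grown in DMEM with serum. The 3 groups, each of 3 libraries, were cells given interferon gamma (IFNγ) at 50 ng/mL together with FK866 at 50 nM for 6 h, cells given IFNγ alone at 50 ng/mL for 6 h, and cells in medium alone. FK866 inhibits Nampt, an enzyme of NAD salvage. There was no group with FK866 alone, and the labels do not settle whether mouse or human IFNγ was used in each library, although the stated dose is that of a mouse product. The titles number the libraries of every group Control 3, Control 4 and Control 5, and the labels do not say what the numbers are or whether the libraries came from separate cultures, so p-values measure the spread between these libraries, which may be technical. The question put to these genes was whether targets of Mitf had fallen by 6 h of IFNγ.

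Melanin is made in the melanosome, a lysosome-related organelle in which tyrosinase (Tyr) oxidises tyrosine to start the pathway, while dopachrome tautomerase (Dct) and Tyrp1 act on later intermediates of black-brown eumelanin. Pmel forms the amyloid fibrils on which melanin is laid down, Mlana is a small membrane protein needed for Pmel to mature, and Slc45a2, Slc24a5 and Oca2 are membrane proteins that set the ionic conditions and pH of the organelle. Gpr143 is a receptor of the melanosome membrane, Trpm1 is a cation channel, and Mitf is the basic helix-loop-helix leucine zipper factor of the melanocyte lineage that binds E-box motifs near many of these genes.

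The E-box windows of 5 genes are shown because they hold letters that Mitf is known to bind. The 10 genes were not chosen by these letters, and whether the letters mark genes that follow Mitf was not tested. Promoter windows, from 250 bases before to 50 after the annotated start, came from RefSeq for GRCm38.p6 and were matched for 6 of the 10 genes, Tyr, Tyrp1, Dct, Slc24a5, Oca2 and Trpm1, the last with more than 1 window. Both strands were searched for CATGTG, for TCATGTG, for CACGTG, and for GTCATGTGCT, the longest run around TCATGTG that the windows of Tyr, Tyrp1 and Dct shared. CATGTG lies within TCATGTG, and TCATGTG within the shared run. The shared run holds the element known as the M-box in these genes. In the sequences, printed in the direction of the gene, the motif is in capitals, and CACATGA is TCATGTG read from the other strand.
Tyr, chr7:87493502-87493559, minus strand: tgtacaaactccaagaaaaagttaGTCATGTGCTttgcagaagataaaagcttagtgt
Tyrp1, chr4:80834141-80834198, plus strand: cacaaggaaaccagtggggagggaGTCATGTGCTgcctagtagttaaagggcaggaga
Dct, chr14:118052365-118052422, minus strand: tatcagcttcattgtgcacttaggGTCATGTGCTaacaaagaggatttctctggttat
Slc24a5, chr2:125068090-125068144, plus strand: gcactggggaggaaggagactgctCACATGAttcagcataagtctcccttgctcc
Trpm1, chr7:64153669-64153723, plus strand: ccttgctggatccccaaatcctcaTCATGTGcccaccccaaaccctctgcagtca
The shared run began 23 bases before the RefSeq start of Tyr, 48 before that of Tyrp1 and 152 before that of Dct. For Tyrp1 the gene span given below begins at 80834123, before the run, so the annotations differ in its start. The run was in 3 of the 6 genes with a window, the 3 it was read from, and in 0.155% of all 27025 genes with a window. TCATGTG was present in 5 of the 6, against 4.31% of all these genes. CATGTG was found in 6 of 6 against 15.9%, and CACGTG in 1 of 6 against 8.09%. That 1 was Trpm1, in a window other than the one printed. Of the separate list of Mitf targets described below, 45 genes had a window. CATGTG was in 5 of these 45, TCATGTG in 4, CACGTG in 5 and the shared run in 0. A match describes letters in a window and is not a measured binding site.

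Library totals ran from 15317003 to 18466972 counts, and the 10 genes together took 1.51% to 1.85% of them. Gene positions are those of GRCm38. Levels are given as CPM, the counts of a gene set to a common library size after TMM scaling, in the order Control 3, Control 4 and Control 5. The interferon gene Irf1 averaged 747 ± 42.4 CPM with IFNγ and FK866, 787 ± 34.2 CPM with IFNγ and 17.3 ± 3.31 CPM in medium (SD, n = 3 each), which fits the labels. Keratinocyte markers had 6 of 7 genes at 0 in every library. The summed level of 8 leukocyte markers ran from 4.64 to 9.80 CPM with IFNγ and FK866, 3.21 to 10.2 CPM with IFNγ and 3.67 to 12.0 CPM in medium. Summed marker levels, here and below, are CPM on library totals without TMM scaling. In such bulk RNA, fewer cells with a transcript and less of it per cell cannot be told apart.

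Mitf was lower in every IFNγ library than in every medium library. Its levels were 342, 401 and 388 CPM with IFNγ and FK866, 266, 374 and 366 CPM with IFNγ, and 753, 884 and 783 CPM in medium. With IFNγ the log2 fold change was -1.27 (SE 0.15, edgeR adjusted p = 7.73e-04), so Mitf fell by 58.4%. With IFNγ and FK866 it was -1.10 (SE 0.15, edgeR adjusted p = 0.00202). Beside this, none of the 10 pigmentation genes was called in either comparison with medium by the same test, in which the groups alone enter the fit. In that fit 0.499% of all genes tested were called lower with IFNγ and 0.597% with IFNγ and FK866. At an unadjusted p under 0.05 the count among the 10 was also 0 in both comparisons. Over all 15237 genes tested it was 1550 with IFNγ and 1620 with IFNγ and FK866. DESeq2 and limma-voom called 0 of the 10 as well.

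Libraries of the same number deviated together, so the fit was repeated with the Control number as a block, which compares treatments within a number. In this fit 4 of the 10 genes fell with IFNγ, Trpm1, Tyr, Slc24a5 and Gpr143, against 6.14% of all genes called lower and 8.12% called higher. These shares are not at like precision, since the median SE was 0.06 over the 10 and 0.11 over all genes tested. A fall of a given size was thus called more readily among the 10. All 10 fold changes were below 0, with a median of -0.20 on the log2 scale, against -0.01 over all genes tested. Within numbers, 7 of the 10 were lower in all 3 pairs, against 22.3% of all genes. For none of the 10 did the IFNγ and medium groups as a whole separate, which they did, with IFNγ lower, for 5.85% of all genes.

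**Figure D1:**
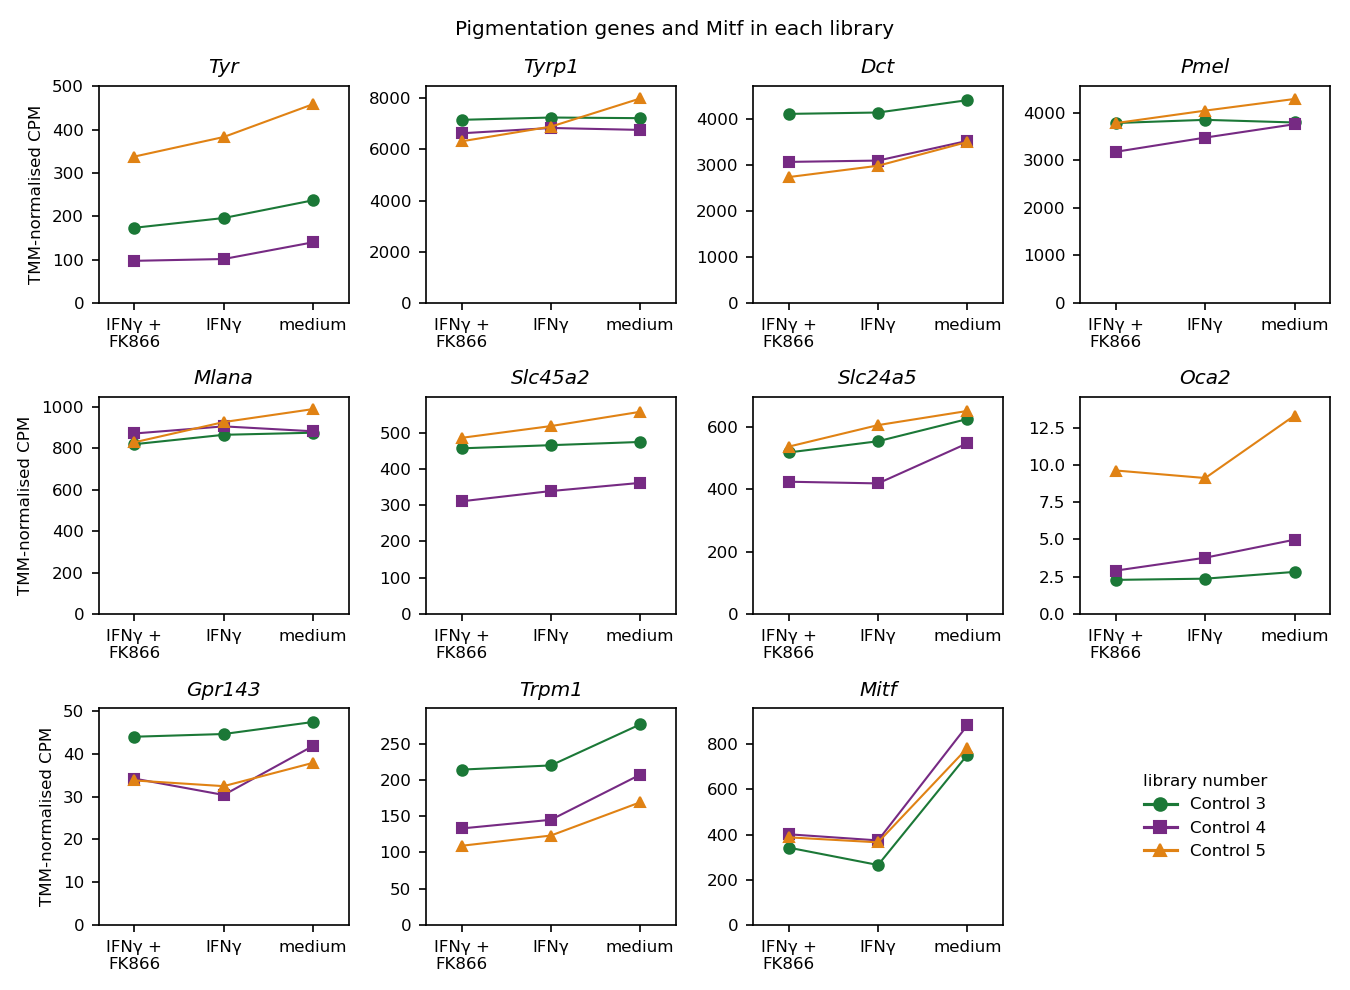
Level of each pigmentation gene and of Mitf in every library, in CPM on TMM-scaled library sizes (linear axes from 0), by treatment, with 1 line per Control number joining its 3 libraries. Mitf drops with IFNγ in all 3 numbers to between 266 and 374 CPM, while the lines of Tyr stay apart by number, from 97.4 CPM in the lowest library to 459 CPM in the highest.

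Tyr (chromosome 7, 87424771 to 87493512), the rate-limiting enzyme of melanin synthesis, had 174, 97.4 and 338 CPM with IFNγ and FK866, 196, 102 and 383 CPM with IFNγ, and 237, 140.1 and 459 CPM in medium. The groups overlapped widely, because Control 5 was highest and Control 4 lowest in each, yet every number was lower with IFNγ than in medium and lower again with FK866. Within numbers Tyr fell by 20.4% with IFNγ (log2 fold change -0.33, SE 0.06, edgeR adjusted p = 5.83e-04 with the block), whereas without the block the same comparison gave -0.30 with an SE of 0.58. With IFNγ and FK866 it fell by 27.9% against medium (log2 fold change -0.47, SE 0.06, edgeR adjusted p = 8.68e-06 with the block).

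Tyrp1 (chromosome 4, 80834123 to 80851719), which stabilises tyrosinase and acts late in eumelanin synthesis, was the most abundant of the enzymes. It had 7159, 6632 and 6318 CPM with IFNγ and FK866, 7249, 6840.3 and 6893 CPM with IFNγ, and 7224, 6765 and 7993 CPM in medium. The groups overlapped, and only Control 5 had less Tyrp1 with IFNγ than in medium. The log2 fold change with IFNγ was -0.07 (95% interval -0.20 to 0.06 with the block), so a fall as large as that of Tyr lies outside this interval. Both genes carry the shared run of letters in their promoter windows.

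Dct (chromosome 14, 118012790 to 118052244), which converts dopachrome, had 4110.4, 3067 and 2737 CPM with IFNγ and FK866, 4140.2, 3096 and 2983 CPM with IFNγ, and 4408, 3524 and 3499.9 CPM in medium. Control 3 was highest in each group, and all 3 numbers were lower with IFNγ than in medium. Its log2 fold change with IFNγ was -0.17 (SE 0.06) and was not called (edgeR adjusted p = 0.0587 with the block), and with IFNγ and FK866 it was -0.22 (SE 0.06) and was called (edgeR adjusted p = 0.0118 with the block). The second call was lost without Control 5 (-0.14) or Control 4 (-0.22).

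Pmel (chromosome 10, 128704195 to 128720238), the fibril protein, had 3782, 3177 and 3781 CPM with IFNγ and FK866, 3849, 3476 and 4043 CPM with IFNγ, and 3793, 3757 and 4287 CPM in medium. Mlana (chromosome 19, 29697824 to 29708634), its partner, had 820.2, 872 and 829 CPM with IFNγ and FK866, 866, 906 and 927 CPM with IFNγ, and 876, 883 and 989.8 CPM in medium. For Mlana all 3 libraries with FK866 lay just below the 3 medium libraries, while for Pmel the groups overlapped. On library totals without TMM scaling the Mlana groups overlapped too, reaching 908 CPM with FK866 and starting at 902 CPM in medium. Neither gene was called in any treatment comparison. With IFNγ the log2 fold change was -0.06 for Pmel (95% interval -0.18 to 0.06 with the block). For Mlana it was -0.03 (-0.15 to 0.10). Pmel shares 34 exon bases with Cdk2 and 105 with Dgka, both on the opposite strand, and the strand setting of the counting is not given in the sources used here. Cdk2, a cell cycle kinase also listed among Mitf targets, had 7.92% as many counts as Pmel over the 9 libraries and fell with IFNγ (log2 fold change -0.70, SE 0.15, edgeR adjusted p = 0.0337).

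Slc24a5 (chromosome 2, 125068124 to 125088677), a potassium-dependent sodium-calcium exchanger, had 518, 424 and 536 CPM with IFNγ and FK866, 554, 418 and 605 CPM with IFNγ, and 625, 547 and 651 CPM in medium. Every library with FK866 was below every medium library, while with IFNγ alone the Control 3 and Control 5 libraries lay above the lowest medium library. Within numbers it fell by 14.2% with IFNγ (log2 fold change -0.22, SE 0.06, edgeR adjusted p = 0.0231 with the block) and by 19.2% with IFNγ and FK866 (-0.31, SE 0.06, edgeR adjusted p = 0.00163 with the block). The call with IFNγ was lost without Control 3 (-0.24) or Control 4 (-0.14). Slc24a5 shares 921 of its 2330 exon bases with Myef2 on the opposite strand. Reads there may have been mixed between the 2 genes or left uncounted, depending on the strand setting and the handling of shared reads. Myef2 had 24.5% as many counts as Slc24a5, and its log2 fold change with IFNγ was -0.06 (95% interval -0.19 to 0.08 with the block).

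Slc45a2 (chromosome 15, 11000721 to 11029233), a transporter of the melanosome membrane, had 457, 311 and 486 CPM with IFNγ and FK866, 466, 339 and 518 CPM with IFNγ, and 475, 362 and 558 CPM in medium. The order of the numbers was the same in each group, and each number was slightly lower with treatment. The log2 fold change with IFNγ was -0.08 (95% interval -0.20 to 0.05 with the block) and was not called.

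Oca2 (chromosome 7, 56239760 to 56536518), which supplies a chloride conductance to the melanosome, was the rarest of the 10, with 855 counts over all 9 libraries. It had 2.29, 2.91 and 9.63 CPM with IFNγ and FK866, 2.37, 3.78 and 9.12 CPM with IFNγ, and 2.82, 4.98 and 13.3 CPM in medium. The Control 5 library was the highest of each group, and all numbers were lower with IFNγ than in medium. Its log2 fold change with IFNγ was -0.43, but with an SE of 0.18 it was not called (edgeR adjusted p = 0.151 with the block).

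Gpr143 (chromosome X, 152781921 to 152808646), the receptor whose loss in humans causes ocular albinism, had 44.0, 34.2 and 33.8 CPM with IFNγ and FK866, 44.6, 30.4 and 32.5 CPM with IFNγ, and 47.5, 41.9 and 37.9 CPM in medium. Groups overlapped because Control 3 was highest in each. Within numbers it fell by 16.2% with IFNγ (log2 fold change -0.26, SE 0.08, edgeR adjusted p = 0.0309 with the block). The call was lost without Control 4 (-0.16), without Control 5 (-0.26) and in DESeq2 with the block (-0.26). With IFNγ and FK866 the log2 fold change was -0.19 (SE 0.08) and was not called (edgeR adjusted p = 0.113 with the block).

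Trpm1 (chromosome 7, 64153835 to 64269775), a channel whose transcript is known to decline in aggressive human melanoma, had 214, 133 and 109 CPM with IFNγ and FK866, 220.0, 145 and 123 CPM with IFNγ, and 276, 207 and 169 CPM in medium. Control 3 was highest and Control 5 lowest in each group, so the groups overlapped, while the fall within each number was plain. It fell by 26.0% with IFNγ (log2 fold change -0.43, SE 0.06, edgeR adjusted p = 3.83e-05 with the block) and fell by 31.4% with IFNγ and FK866 (-0.54, SE 0.06, edgeR adjusted p = 2.08e-06 with the block). Trpm1 and Tyr were called in both comparisons with medium in each of the 9 fits that carried the block, also with any 1 number left out. Over those fits the log2 fold change with IFNγ ran from -0.48 to -0.40 for Trpm1 and from -0.36 to -0.27 for Tyr, against -1.28 (SE 0.07) for Mitf in the fit with all libraries.

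**Figure D2:**
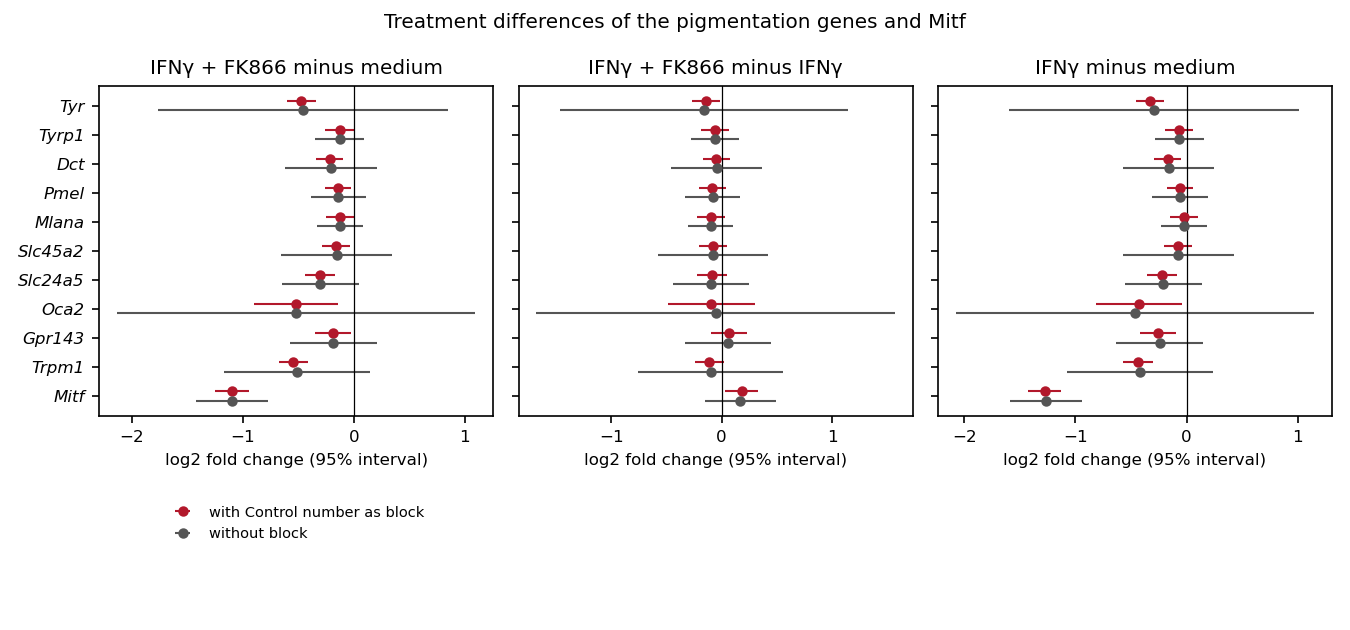
Log2 fold change of each pigmentation gene and of Mitf in the 3 treatment comparisons, with 95% intervals, from the fit with the Control number as a block (red) and without it (grey). The intervals of Tyr with the block run from -0.46 to -0.20 for IFNγ against medium, inside an interval of -1.60 to 1.01 without it, while the interval of Mitf in that comparison ends at -0.94 without the block and at -1.13 with it.

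Against medium, IFNγ with FK866 gave 4 called genes with the block, Trpm1, Tyr, Slc24a5 and Dct, all lower, against 7.61% of all genes called lower and 8.53% called higher. Here too the median SE was smaller over the 10 (0.06) than over all genes tested (0.11). All 10 were lower in all 3 pairs, against 23.1% of all genes, and 2 of them, Mlana and Slc24a5, separated the groups without overlap, against 6.29%. Some of these margins were small and hung on the TMM scaling. Pmel in Control 3 differed by only -0.0045 on the log2 scale. On library totals Mlana in Control 4 had 907.9 CPM with FK866 and 907.3 CPM in medium, and its groups overlapped. The comparison shares its medium libraries with that of IFNγ against medium, so the resemblance of the lists is not independent. Side by side, the log2 fold changes of Trpm1 were -0.54 with FK866 and -0.43 with IFNγ alone, those of Tyr -0.47 and -0.33, and those of Slc24a5 -0.31 and -0.22.

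The direct comparison of IFNγ and FK866 with IFNγ alone asks what Nampt inhibition adds at 6 h. None of the 10 genes was called, without the block (0.00% of all genes called lower) or with it (0.0197% called in either direction, 3 genes). Over the 10 genes the log2 fold changes with the block ran from -0.14 (Tyr) to 0.07 (Gpr143), and 9 were below 0. In this comparison 7 genes, Tyr, Tyrp1, Dct, Pmel, Mlana, Slc45a2 and Trpm1, were lower in all 3 pairs, against 16.2% of all genes. On library totals without TMM scaling Dct in Control 3 was higher with FK866, at 4060 CPM against 4040 CPM. At an unadjusted p under 0.05 there was 1 gene with the block, Tyr (95% interval -0.27 to -0.01), beside 573 of all 15237 genes tested. Without the block there were 0 of the 10, beside 88 of all genes tested. DESeq2 and limma-voom called 0. Mitf went the other way in all 3 numbers, with a log2 fold change of 0.18 (95% interval 0.03 to 0.33 with the block) that was not called (edgeR adjusted p = 0.987).

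For most of these genes more of the variation in level lay between Control numbers than between treatments. In a split of each gene's log2 variation, the number took 57.5% to 93.4% of the sum of squares in 8 of the 10 genes, and 19.1% in Tyrp1 and 26.3% in Mlana. Treatment took 5.44% to 46.4%. Over all genes tested the medians were 54.7% for number and 15.3% for treatment, and for Mitf the shares were 5.28% for number and 93.2% for treatment.

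With treatment in the fit, 5 of the 10 genes differed between Control 3 and the mean of Control 4 and 5, against 38.5% of all genes called in either direction. Trpm1 averaged 237 ± 34.4 CPM in Control 3, 162 ± 39.8 in Control 4 and 134 ± 31.3 in Control 5 (SD over the 3 treatments), with a log2 fold change of 0.70 (SE 0.05, edgeR adjusted p = 3.89e-09). Dct, at 0.43 (SE 0.05), and Gpr143, at 0.37 (SE 0.07), were also higher in Control 3. Slc45a2 was higher by 0.16 (SE 0.05), a call that was lost without any 1 of the IFNγ libraries (0.16 each) or without the Control 3 (0.12) or Control 4 (0.14) library with FK866. Oca2 was lower, averaging 2.49 ± 0.288 CPM in Control 3, 3.89 ± 1.04 in Control 4 and 10.7 ± 2.29 in Control 5, with a log2 fold change of -1.35 (SE 0.17, edgeR adjusted p = 3.62e-06). Mitf was lower in Control 3 (log2 fold change -0.27, SE 0.06, edgeR adjusted p = 0.00154), opposite in sign to Trpm1, Dct and Gpr143.

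Between Control 4 and Control 5, 6 of the 10 differed, against 31.1% of all genes. Tyr averaged 113 ± 23.6 CPM in Control 4 and 393 ± 61.1 CPM in Control 5 (SD over the 3 treatments), with Control 3 between them at 202 ± 32.1 CPM. Its log2 fold change of -1.81 (SE 0.06, edgeR adjusted p = 1.54e-13) was several times larger than its difference with IFNγ. Oca2 (-1.46, SE 0.18), Slc45a2 (-0.63, SE 0.06), Slc24a5 (-0.37, SE 0.06) and Pmel (-0.22, SE 0.06) were lower in Control 4 as well, and Trpm1 was higher (0.27, SE 0.06). The call for Pmel was lost without the Control 4 library with IFNγ and FK866 (-0.18). Mitf did not pass the test here, with a log2 fold change of 0.08 (95% interval -0.06 to 0.23). Scaling by library totals alone, which moved the median of all genes by about 0.1, turned Tyrp1 (-0.06, against 0.02 with totals) and Mlana (-0.04, against 0.04) round in sign. If each number was 1 culture, these tests measure the spread between its libraries and not between cultures.

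**Figure D3:**
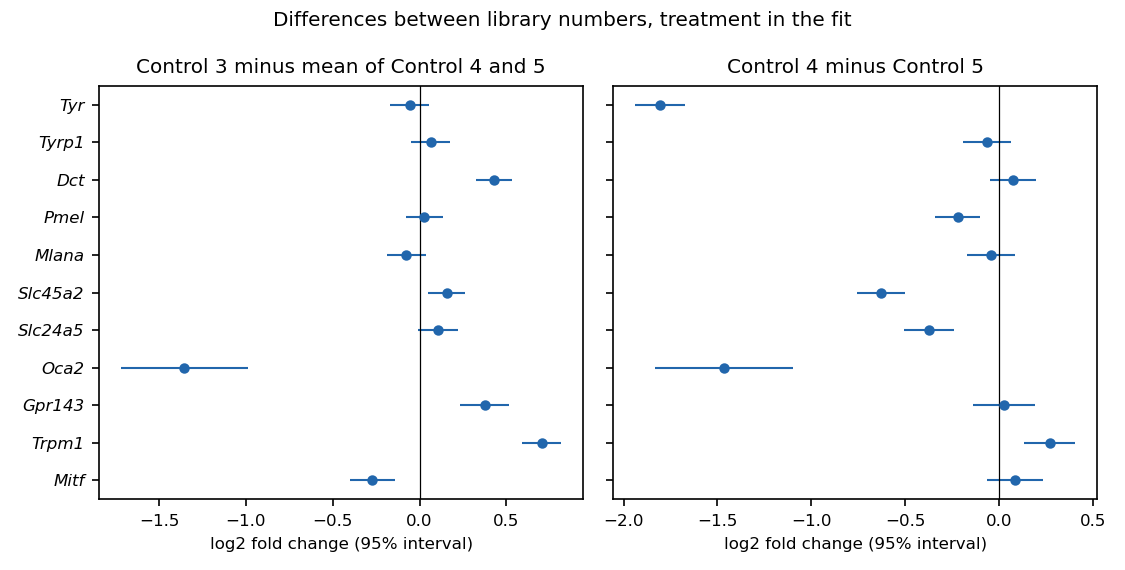
Log2 fold change between library numbers for each pigmentation gene and Mitf, with treatment in the fit and 95% intervals, for Control 3 against the mean of Control 4 and 5 (left) and for Control 4 against Control 5 (right). Tyr stands at -1.81 and Oca2 at -1.46 on the right, while on the left Trpm1, at 0.70, and Oca2, at -1.35, lie farthest from 0.

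The 10 genes did not all vary together over the libraries. Of the 45 pairs of genes, 37 had a positive Pearson correlation of log2 CPM over the 9 libraries, with a median of 0.44, and 9 were above 0.8. Dct, Gpr143 and Trpm1 formed one set, with r from 0.92 to 0.97, and Tyr, Pmel, Slc45a2 and Slc24a5 another, with r from 0.85 to 0.95. Dct and Oca2 ran opposite to each other most (r = -0.60). These values describe 9 libraries that share 3 numbers and 3 treatments and are not independent points. The expressed genes most like the mean standardised level of the 10, among 9764 compared with a mean of at least 5 CPM, were Tomm5 (r = 0.97), Zbed3 (0.96), Gdap2 (0.96), Sort1 (0.96), Jmy (0.96) and Sfxn1 (0.96). Sort1, a sorting receptor, is also on the list of Mitf targets.

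To compare levels between genes, counts were divided by exon length. In medium Tyrp1 led with 2591 ± 219 CPM per kilobase, rank 12 among all genes tested, and was followed by Pmel (1722 ± 129), Mlana (867 ± 60.5) and Dct (646 ± 87.8; SD, n = 3 each). Slc24a5 stood at 261 ± 23.1 and Slc45a2 at 156 ± 33.0 CPM per kilobase. Tyr stood far lower, at 39.2 ± 23.0, with Gpr143 at 21.3 ± 2.4, Trpm1 at 14.8 ± 3.69 and Oca2 at 1.78 ± 1.40 CPM per kilobase. The place of Trpm1 below Gpr143 comes from the divisor, 14746 against 1995 exon bases. Before division Trpm1 averaged 218 CPM in medium and Gpr143 42.4 CPM. Over the 9 libraries the ranges of Slc24a5 and Slc45a2 overlapped, as did those of Tyr and Gpr143 and of Gpr143 and Trpm1, and the ranges of the other neighbours in this order did not. The enzyme that starts the pathway was measured at a far lower transcript level per length than Tyrp1 and Dct in these cells.

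**Figure D4:**
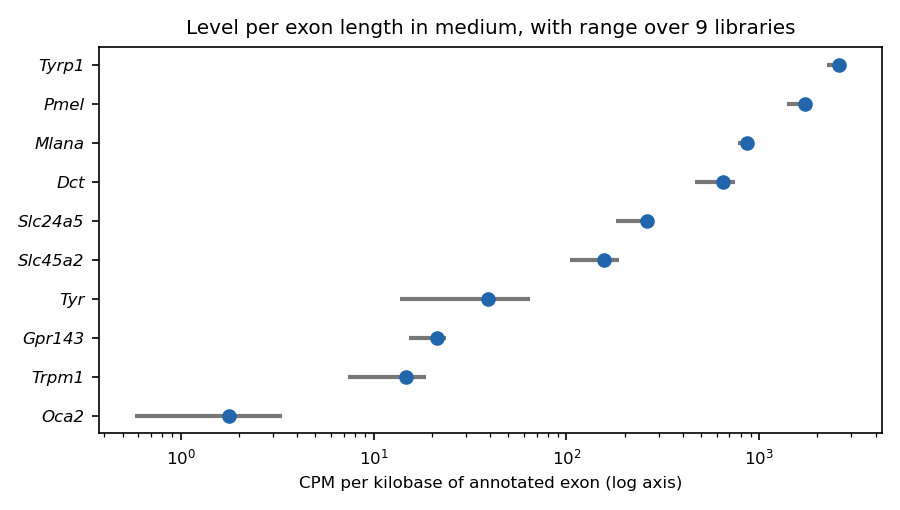
Level of each pigmentation gene in CPM per kilobase of annotated exon (log axis), with the mean of the 3 medium libraries as a point and the range over all 9 libraries as a bar. The genes run from 2591 for Tyrp1 to 1.78 for Oca2, and the bar of Tyr reaches from 13.7 to 64.6, across that of Gpr143.

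Genes known as Mitf targets, mostly from human melanoma, were read in a separate list that holds none of the 10. Of its 59 genes, 48 were tested. Without the block 1 rose with IFNγ and 2 fell, where 0.499% of all genes were called lower. With the block 6 rose, 14 fell and 28 were not called, where 8.12% of all genes were called higher and 6.14% lower, with a median log2 fold change of -0.13, against -0.01 over all genes tested. Of those that fell, Tbx2, a T-box repressor, averaged 77.7 CPM with IFNγ and FK866, 80.0 CPM with IFNγ and 144 CPM in medium (log2 fold change with IFNγ -0.85, SE 0.15, edgeR adjusted p = 0.0143). Sema6a, a semaphorin, had 18, 44.9 and 33.2 CPM with IFNγ and FK866, 18.8, 43.7 and 33.6 CPM with IFNγ, and 38.0, 88.0 and 71.3 CPM in medium, and was called only with the block (-1.04, SE 0.07). Wdr91, an endosomal protein, was likewise called only with the block (-0.52, SE 0.08).

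Other listed targets rose. Plxnc1, a plexin receptor, averaged 104 CPM with IFNγ and FK866, 102 CPM with IFNγ and 59.3 CPM in medium (0.81, SE 0.07, called with the block). Tnfrsf14, a receptor of the tumour necrosis factor family, averaged 7.55 CPM with IFNγ and FK866, 7.57 CPM with IFNγ and 0.409 CPM in medium (log2 fold change with IFNγ 4.18, SE 0.29, edgeR adjusted p = 2.30e-05). Mc1r, the melanocortin receptor that signals toward Mitf through cAMP, averaged 221 CPM with IFNγ and FK866, 219 CPM with IFNγ and 177 CPM in medium, and rose with the block (0.32, SE 0.08, edgeR adjusted p = 0.00548). The listed targets moved in both directions, while Mitf was lower in every IFNγ library. In the comparison of IFNγ and FK866 with IFNγ alone the median of the 48 was -0.04 with the block, against -0.01 over all genes tested.

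Among 11 tested regulators upstream of pigmentation, Usf1, an E-box factor that has been tied to pigment genes, averaged 40.1 CPM with IFNγ and FK866, 42.9 CPM with IFNγ and 19.4 CPM in medium. It rose with IFNγ (log2 fold change 1.14, SE 0.12, edgeR adjusted p = 3.02e-04), and Mitf was the 1 that fell without the block. With the block Mc1r also rose and Sox10, a factor that activates Mitf and Dct, also fell (-0.30, SE 0.06, edgeR adjusted p = 0.00175).

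Melanosome biogenesis genes, which build and move the organelle, had 33 names, of which 32 were matched and tested. The lists overlap, so their counts are not separate. The Mitf target list shares 3 genes with this list, Rab27a among them. It shares 4 with the lumen and precursor list below and 2 with the upstream regulators, Mc1r among them. Without the block 1 fell with IFNγ, Rab32, a small GTPase that sends enzymes to the melanosome, which averaged 22.2 CPM with IFNγ and FK866, 24.2 CPM with IFNγ and 40.4 CPM in medium (log2 fold change -0.74, SE 0.16, edgeR adjusted p = 0.0397). With the block 1 rose and 8 fell, where 8.12% of all genes were called higher and 6.14% lower, and the median was 0.01. Among the 8 were Lyst, a regulator of lysosome size (-0.45, SE 0.06), Sytl2, an effector of Rab27a (-0.44, SE 0.06), Mlph, the linker of melanosomes to myosin (-0.40, SE 0.06), and Rab27a itself (-0.39, SE 0.06). Hps3, a subunit of a trafficking complex, fell too (-0.42, SE 0.07). Among 13 tested genes of the melanosome lumen and of melanin precursors, the calls were made with the block alone. Mfsd12, which imports cysteine into melanosomes, rose (0.50, SE 0.10) and Ctns, the cystine exporter of lysosomes, fell (-0.26, SE 0.08), with a list median of 0.09.

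**Figure D5:**
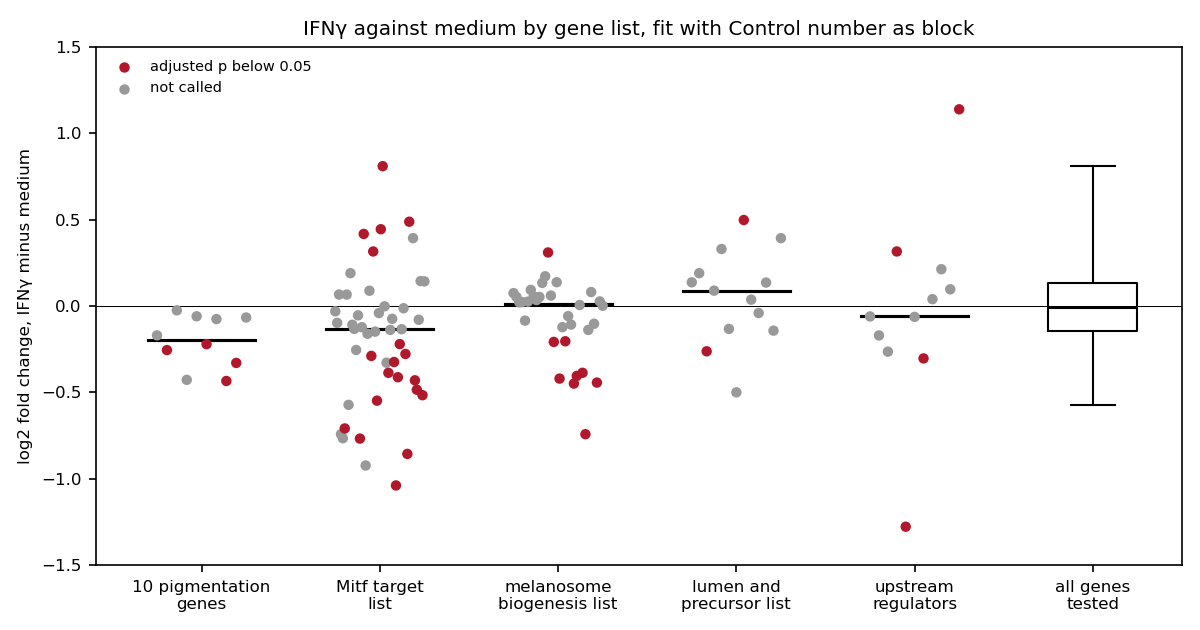
Log2 fold change of IFNγ against medium, from the fit with the Control number as a block, for each gene of the pigmentation set and of 4 further lists, with the median as a bar and genes at an adjusted p below 0.05 in red. The box shows all 15237 genes tested (median -0.01, box over the quartiles, whiskers from percentile 5 to percentile 95). The axis is limited to 1.5 in each direction, and Tnfrsf14, at 4.18, lies outside it; the 10 pigmentation genes all lie between -0.43 and -0.03.

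Of 15 markers of dedifferentiated, neural crest-like melanoma cells, 7 were tested. Jun, an AP-1 subunit, rose with IFNγ (log2 fold change 1.44, SE 0.25, edgeR adjusted p = 0.0121), averaging 181 CPM with IFNγ and FK866, 192 CPM with IFNγ and 71.0 CPM in medium. With the block Fn1, fibronectin (1.43, SE 0.19), and Tcf4 (0.37, SE 0.10) rose as well, and Sox9 fell (-0.40, SE 0.12). Among 5 tested Schwann and glial markers, Gfap rose (1.55, SE 0.12), called with the block alone. Mbp (-0.29, SE 0.07), which is also on the list of Mitf targets, and Erbb3 (-0.37, SE 0.06) fell in the blocked fit. Mbp by itself averaged 383 CPM with IFNγ and FK866, 409 CPM with IFNγ and 495 CPM in medium. The summed level of the 7 Schwann and glial markers ran from 338 to 1079 CPM with IFNγ and FK866, 346 to 1109.9 CPM with IFNγ and 433 to 1349 CPM in medium, and its part in the pigment gene levels was not tested. Of 8 fibroblast and endothelial markers, summed at 4.14 to 10.7 CPM with IFNγ and FK866, 3.41 to 9.14 CPM with IFNγ and 7.18 to 15.2 CPM in medium, 2 were tested, and Col1a2, a collagen chain, fell with IFNγ (-1.69, SE 0.28, edgeR adjusted p = 0.00952). Nampt, the target of FK866, averaged 522 ± 79.9 CPM with IFNγ and FK866, 538 ± 47.1 CPM with IFNγ and 192 ± 33.4 CPM in medium (SD, n = 3 each).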

How the data were processed

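The authors deposited 1 table of unnormalised read counts, with genes by Ensembl identifier in rows and a column for every library, and its values are whole. Per the submitters' processing notes, the tools were cutadapt 1.16, STAR 2.7.6a, featureCounts 1.6.3 and DESeq2 1.30.1, with the builds GRCm38 and mm10. The strand setting of counting is not given in the sources used here. Polyadenylated RNA was sequenced, per the labels. The series text names a 10x platform, but the table holds no values per cell and was treated as bulk. Symbols, coordinates and exon lengths came from a GRCm38 annotation, which matched 55227 of 55487 genes.

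Counts were tested in R 4.3.3 with edgeR 4.0.16 (TMM, filterByExpr, quasi-likelihood F test, all 9 libraries in 1 fit), with Benjamini-Hochberg adjustment over 15237 genes and a call at an adjusted p below 0.05. These genes held 99.89% of counts. Alternatives used DESeq2 1.42.0, limma 3.58.1 (voom), other scaling, no filter, fewer groups and left-out libraries; their effect is given in the closing section. CPM were scaled by TMM library sizes, except the summed marker levels, which used library totals. Correlations used log2(CPM + 0.5), and 2 libraries of a group always differed by more than sampling noise (chi-square over its degrees of freedom from 23.0 to 39.5).

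The Control number in the titles was taken to pair libraries, because same-numbered libraries deviated together from their group means (r from 0.59 to 0.76, 9 pairs). Libraries of different number gave r from -0.51 to -0.14 (18 pairs). Because deviations within a group sum to 0, values below 0 there follow from those above 0 within numbers. They are no separate evidence for the pairing. The blocked value is given where it changes a call.

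The 10 genes and the lists were chosen with earlier results of these data known. Named genes are the 10, Mitf, the 4 with the smallest p per list in either fit (IFNγ against medium), Irf1, Nampt and the 6 genes most like the 10. Genes sharing exon bases with the 10 were also named, and a gene of this rule is not reported here.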

Additional observations from a re-analysis of the deposited data

How the results depend on the processing

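Without the Control number as a block, none of the 10 genes was called in a treatment comparison under RLE size factors, library totals, DESeq2, limma-voom, no filter, a fit of the 2 groups alone or any 1 library left out (0 in all 3 comparisons each time). The replicate block raised the count to 4 for IFNγ against medium and 4 for IFNγ and FK866 against medium, and left 0 for IFNγ and FK866 against IFNγ. For IFNγ against medium the blocked count was 4 in DESeq2, 4 with RLE size factors, 5 with library totals, 5 with no filter, 5 in limma-voom, and 2 to 4 with 1 number left out. For IFNγ and FK866 against medium it was 5 in DESeq2, 4 with RLE size factors, 6 with library totals, 5 with no filter, 4 in limma-voom, and 3 to 6 with 1 number left out. The blocks with RLE, totals, no filter and voom were chosen after seeing the data. Dct was called for IFNγ against medium with the block in DESeq2, with totals, with no filter and in limma-voom.

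With 1 number left out and the block, Oca2 turned to 0.0497 without Control 4 (IFNγ and FK866 against IFNγ), and Tyrp1 and Mlana to 0.017 each without Control 5 (IFNγ against medium). Leaving out 1 library without the block breaks a pair, and signs then turned. For IFNγ against medium the log2 fold change ran from -0.91 to 0.27 for Tyr, -0.12 to 0.0031 for Tyrp1, -0.11 to 0.0085 for Pmel, -0.059 to 0.036 for Mlana, -0.23 to 0.083 for Slc45a2 and -1.19 to 0.38 for Oca2. For IFNγ and FK866 against IFNγ it ran from -0.74 to 0.44 for Tyr, -0.23 to 0.12 for Dct, -0.24 to 0.10 for Slc45a2, -0.23 to 0.016 for Slc24a5, -0.97 to 0.67 for Oca2, -0.075 to 0.25 for Gpr143 and -0.43 to 0.18 for Trpm1. For IFNγ and FK866 against medium it ran from -1.04 to 0.11 for Tyr, -0.30 to 0.022 for Slc45a2 and -1.43 to 0.33 for Oca2.

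Between numbers, 4 to 5 genes were called for Control 3 and 5 to 6 for Control 4 against 5 with 1 library left out, and 3 for Control 4 against 5 without the treatment term, where the cause was not tested. Signs turned for Tyrp1 (0.025) and Mlana (0.045) with library totals. Without 1 library Control 4 against 5 ran from -0.13 to 0.027 for Tyrp1, -0.092 to 0.0059 for Mlana and -0.054 to 0.10 for Gpr143, and Control 3 against the others from -0.019 to 0.084 for Pmel. Library totals changed the split of all genes between Control 4 and 5 to 3592 higher and 1534 lower, against 2422 and 2311 with TMM. Depth limits Oca2 most, with 36 counts in its lowest library.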
